A study of Bos taurus with 9 samples.

Results

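The later response of bovine mammary epithelial cells to lipopolysaccharide (LPS) was read from 6 of the 9 libraries of the series, 3 of cells collected 12 h after LPS was added (12 hpi) and 3 of untreated cells (0 h). The cells were MAC-T, an immortalized bovine mammary epithelial line, and those of the 12 hpi group received 50 ng/μL LPS while the 0 h group received none. All groups share the same line and no allele or other agent was introduced in any of them, so the model holds epithelial cells of 1 line in culture and none of the leukocytes of an udder. Each time point was 1 culture plate, so an effect of the plate and one of the hours with LPS cannot be told apart. The labels call the 3 libraries of a group biological replicates, but no source used here says that they came from separate plates, and p-values then measure the spread between these libraries only. Long noncoding RNA (lncRNA) was measured as FPKM (fragments normalized for transcript length and mapped depth) for 2257 transcripts, which belong to 1832 genes, and circular RNA (circRNA) as TPM for 3763 circRNAs. The 3 libraries at 6 hpi entered the fits to estimate the spread, and their values are given where they place a 12 hpi value in the time course.

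LPS is a component of the outer membrane of Gram-negative bacteria such as the Escherichia coli that cause mastitis. Cells sense it through Toll-like receptor 4 (TLR4), which signals to NF-kB and MAP kinases and so switches on cytokine and chemokine genes. LncRNAs are transcripts without coding potential that can lie between genes, within them on the sense strand, or opposite them on the antisense strand, while circRNAs arise when an exon end is joined backwards to an upstream exon start and the product resists exonucleases. The roles of host genes given here are those known from human and mouse.

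The only lncRNA sequences in the sources used here are the study's qRT-PCR primers. Those of the 6 lncRNAs it chose from this comparison are given, and those from its other comparisons are left out. The primers are printed because they mark the stretch of each transcript by which it can be measured again, and each pair is written 5′ to 3′ in lower case.
TCONS_00039271 forward: cgaagcgcggagaagcta
TCONS_00039271 reverse: tgcgaagtcgtgtggagga
TCONS_00139850 forward: acaagtgaacagcgaagg
TCONS_00139850 reverse: catcaaaggtgggaacg
TCONS_00012642 forward: ggcaggcagattctttac
TCONS_00012642 reverse: gttgataagcctacaggagac
ENSBTAT00000079931 forward: tcgtggcagggacagaaa
ENSBTAT00000079931 reverse: aagcggcaaggtgttagg
TCONS_00157698 forward: ggaggtgaacaacaagtgg
TCONS_00157698 reverse: gccatctggatcaggtttc
TCONS_00150863 forward: taccaggctcctccatccat
TCONS_00150863 reverse: cgactcccttggctacatc

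The untreated libraries were not alike. In lncRNA values 0 h replicate 3 lay nearest to the LPS-treated cells. Among the 3 untreated libraries it was the closest to the 12 hpi mean for 901 of the 1948 tested transcripts (46.3%). It also held by far the most circRNA junction reads, 15314. The other untreated libraries held 3079 and 2305 reads, and the 12 hpi libraries 9747, 9434 and 9599. These numbers did not follow sequencing depth, since the paper lists more mapped reads for each untreated library than for any 12 hpi library. Why junction reads differed was not tested. Results are therefore given with and without these libraries. The FPKM values carry no fragment counts per transcript, and no counting interval is printed for them. No mRNA values were used here, and the identity of the cells could not be checked on their defining genes. Of 16 defining epithelial markers such as keratins, EPCAM and the caseins, 0 had a listed lncRNA in them or with a host gene within 100 kb. The count was 0 of 6 for fibroblast markers and 1 of 5 (CD3E) for leukocyte markers. Only lncRNAs whose host has a gene symbol could be placed, so intergenic ones near a marker were not counted.

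At 12 hpi, 124 lncRNA transcripts were higher and 63 lower than at 0 h. A transcript was counted when its log2 fold change exceeded 1 in size with an unadjusted p under 0.05 from limma on log2(FPKM + 0.1), the fold and p limits that the study used. The 187 transcripts were 9.6% of the 1948 tested, with 6.37% higher and 3.23% lower. None passed an adjusted p of 0.05 (limma with Benjamini-Hochberg adjustment), the smallest being 0.0922, while 276 (14.2%) had an unadjusted p under 0.05. No count test was possible on these values. The higher transcripts were rare in untreated cells: the median of their mean level was 1.15 FPKM at 12 hpi and 0.343 FPKM at 0 h. Their log2 fold changes ran from 1.01 to 4.26, with a median of 1.53. The lower transcripts had a median level of 0.44 FPKM at 12 hpi and 1.13 FPKM at 0 h, with log2 fold changes between −5.80 and −1.0 and a median of −1.32. Both ranges include transcripts listed at 0 in every library of one group, whose fitted values depend on the pseudocount. In 106 of the higher and 54 of the lower transcripts the 3 values at 12 hpi did not overlap the 3 at 0 h. Over all tested transcripts such separation was seen in 22.6%, with 14.1% higher and 8.52% lower.

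The excess of higher over lower transcripts depended on the scale of the libraries. Over all tested transcripts the median log2 fold change was 0.11. When each library was centred on its own median, 85 transcripts were higher and 90 lower, and after quantile normalization 87 were higher and 93 lower. More transcripts passed 0.5 FPKM in LPS-treated cells as well, 1440, 1565 and 1559 at 12 hpi against 1399, 1432 and 1396 at 0 h. The 2 groups did not overlap, and the difference of 112 transcripts had an exact permutation p of 0.1, the smallest that 3 libraries against 3 allow. Without 0 h replicate 3 the counts grew to 186 higher and 85 lower, and 31 transcripts then passed the adjusted p. With 0 h replicate 3 as the only untreated library fewer transcripts were called in both directions. That setting leaves a single untreated library, so its standard errors are larger. A call lost there therefore need not mean a smaller fold change.

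**Figure D1:**
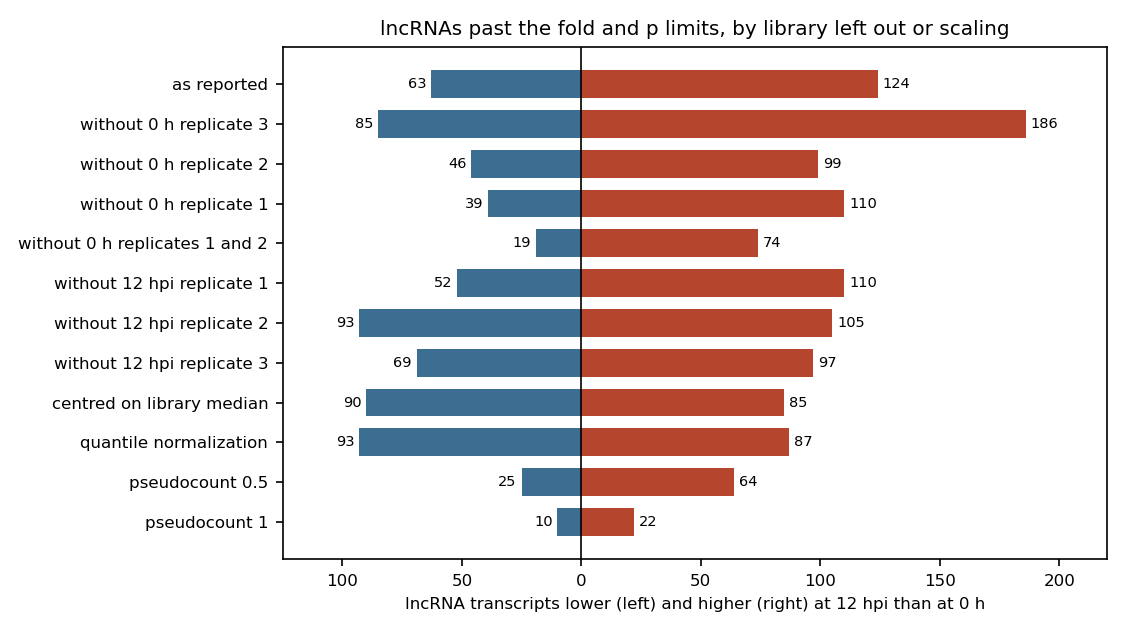
Number of lncRNA transcripts lower (bars to the left) and higher (bars to the right) at 12 hpi than at 0 h, as reported and with single libraries left out, other scalings or larger pseudocounts. The counts were 124 higher and 63 lower as reported, 186 and 85 without 0 h replicate 3, and 85 and 90 when libraries were centred on their medians.

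The abundant lncRNA with the clearest loss was TCONS_00039271, antisense to RRAS2, which encodes a small GTPase of the Ras family (chromosome 15, 38367178 to 38397239 of ARS-UCD1.2; named ENSBTAG00000011905-AS1 in the files). It had 9.48, 10.2 and 12.7 FPKM at 12 hpi, against 43.1, 44.6 and 24.0 FPKM at 0 h. All 3 LPS-treated libraries lay below all 3 untreated ones, and 0 h replicate 3 was the lowest of the untreated. The log2 fold change was −1.74 (SE 0.26), and −1.16 when 0 h replicate 3 stood alone for untreated cells. At 6 hpi the level was 28.5, 20.7 and 22.3 FPKM. The sense transcript RRAS2-OT1 had 0.530, 1.42 and 0.316 FPKM at 12 hpi, against 0.838, 1.60 and 0.433 FPKM at 0 h, and its groups overlapped.

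Of the other primer targets, 3 were listed at 0 in every untreated library, so no fold change is given. TCONS_00139850 and ENSBTAT00000079931 passed the limits as higher, the second not with 0 h replicate 3 as the only untreated library. TCONS_00139850, antisense to ENSBTAG00000009752 on chromosome 7 (17846885 to 17960439), had 1.39, 3.19 and 1.34 FPKM at 12 hpi. At 6 hpi it was listed at 0, 0 and 0.390 FPKM, so that its values separated 12 hpi from both earlier time points. ENSBTAT00000079931, an annotated lncRNA on chromosome 10 (97156891 to 97169381), had 1.75, 0 and 2.83 FPKM at 12 hpi. It was already listed at 4.21, 1.41 and 1.78 FPKM at 6 hpi. TCONS_00157698 on the X chromosome (49935034 to 49993278) had 0.0449, 3.87 and 1.28 FPKM at 12 hpi, and it was too low for the filter of 0.5 FPKM in 3 libraries, so it was not tested. The 3 libraries at 12 hpi thus disagreed widely for these 2 transcripts. UBE3D-OT1 (TCONS_00150863), which overlaps the ubiquitin ligase gene UBE3D on chromosome 9, was also not tested. It had 0, 0.00422 and 0 FPKM at 12 hpi, against 0.167, 2.77 and 0.0236 FPKM at 0 h, so that 0 h replicate 2 alone carried most of its untreated level.

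Antisense and intergenic lncRNAs were among the most clearly lowered at 12 hpi. The antisense lncRNA of TGFBR3, the TGF-beta co-receptor betaglycan, had 0, 0.229 and 0.139 FPKM at 12 hpi, against 1.03, 1.26 and 0.834 FPKM at 0 h (ENSBTAG00000024269-AS1, chromosome 3, 51501530 to 51530905). Its log2 fold change was −2.50 (SE 0.52), and the groups did not overlap. It was −2.23 with 0 h replicate 3 alone, where the p limit was not passed. The sense transcript TGFBR3-OT1 had 0.936, 1.14 and 0.616 FPKM at 12 hpi, against 0.510, 1.61 and 1.14 FPKM at 0 h, with overlapping groups. The intergenic LINC1289 on chromosome 5 had 0.226, 0.539 and 0.555 FPKM at 12 hpi, against 1.76, 2.01 and 1.44 FPKM at 0 h, a log2 fold change of −1.82 (SE 0.34). LINC1292, on the same chromosome, had 0.431, 0.563 and 0.454 FPKM at 12 hpi, against 1.26, 1.84 and 1.21 FPKM at 0 h (log2 fold change −1.38, SE 0.27). Both were lower in each LPS-treated library than in any untreated one. Neither depended on 0 h replicates 1 and 2, without which the log2 fold changes were −1.58 and −1.18. ENSBTAG00000008409-AS1 on chromosome 14 had 0.386, 0.302 and 0.326 FPKM at 12 hpi, against 1.21, 0.697 and 1.13 FPKM at 0 h (log2 fold change −1.32, SE 0.32). ENSBTAG00000001874-AS1 on chromosome 22 was even across LPS-treated libraries, at 0.521, 0.525 and 0.560 FPKM, against 3.32, 2.88 and 0.943 FPKM at 0 h. Its log2 fold change of −1.79 (SE 0.43) shrank to −0.72 with 0 h replicate 3 alone.

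Among the lowered transcripts within genes were ZMYM5-OT1, CALCOCO2-OT1 and MGAT5B-OT1. ZMYM5-OT1, in the zinc finger gene ZMYM5 on chromosome 12, had 0.611, 0.366 and 0.340 FPKM at 12 hpi, against 2.91, 1.31 and 1.57 FPKM at 0 h. The log2 fold change was −1.87 (SE 0.37), and the level at 6 hpi was 1.5, 0.929 and 0.993 FPKM. The mean at 6 hpi, 1.14 FPKM, lay between the means of both groups, while its highest library lay above 0 h replicate 2. CALCOCO2-OT1, in the gene of an autophagy receptor for intracellular bacteria that lies within 100 kb of HOXB13, had 0.332, 0.848 and 0.566 FPKM at 12 hpi, against 2.78, 3.28 and 1.09 FPKM at 0 h. Its log2 fold change was −1.80 (SE 0.48), and it was −0.88 with 0 h replicate 3 as the only untreated library. MGAT5B-OT1, in the gene of an N-acetylglucosaminyltransferase on chromosome 19, had 0, 0 and 0 FPKM at 12 hpi, against 0.984, 0.519 and 0.573 FPKM at 0 h. At 6 hpi it was still present, at 0.904, 0.868 and 0.261 FPKM. It was the 1 transcript above 0.5 FPKM in every untreated library and at 0 in every 12 hpi library. The reverse held for 2 transcripts, TCONS_00139850 and the annotated ENSBTAT00000075394 on chromosome 27, which had 0.646, 0.542 and 0.767 FPKM at 12 hpi.

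With all libraries in the fit, intergenic lncRNAs made up the largest number of the raised ones by class. Of 521 tested intergenic lncRNAs, 51 were higher and 14 lower, with a median log2 fold change of 0.16. Of 531 antisense lncRNAs 23 were higher and 21 lower, of 712 sense overlapping ones 40 were higher and 19 lower, and of 184 annotated ones 10 were higher and 9 lower. The shares higher were 9.79% of intergenic, 4.33% of antisense, 5.62% of sense overlapping and 5.43% of annotated lncRNAs. On values centred on library medians, intergenic lncRNAs counted 33 higher and 19 lower. By number they were no longer the largest raised class with 0 h replicate 3 as the only untreated library. Sense overlapping lncRNAs, of which more were tested, then led by number, which is not a ranking by share. LINC177 on chromosome 11, taken as a single transcript, had 3.74, 3.64 and 6.72 FPKM at 12 hpi, against 0.956, 0.767 and 0.278 FPKM at 0 h. Its log2 fold change was 2.72 (SE 0.44), and 3.61 with 0 h replicate 3 alone. The annotated ENSBTAT00000080391 on chromosome 17 had 0.909, 0.550 and 1.45 FPKM at 12 hpi, against 0.0187, 0 and 0.0629 FPKM at 0 h. Its log2 fold change was 3.01 (SE 0.51), and 2.63 with 0 h replicate 3 alone. LINC991 on chromosome 25 (2311841 to 2313665) had 9.65, 10.04 and 10.5 FPKM at 12 hpi, against 1.75, 2.89 and 5.55 FPKM at 0 h. The LPS-treated libraries agreed closely while the untreated ones differed among themselves, and the log2 fold change was 1.69 (SE 0.38) with all libraries and 0.85 with 0 h replicate 3 alone. LINC1152 on chromosome 3 had 2.45, 1.99 and 3.06 FPKM at 12 hpi, against 0.883, 0.838 and 1.17 FPKM at 0 h, a log2 fold change of 1.28 (SE 0.30) that was 1.01 and no longer passed the p limit in the same setting. The annotated ENSBTAT00000081465 on chromosome 13 had 1.65, 1.05 and 1.14 FPKM at 12 hpi, against 0.418, 0.483 and 0.306 FPKM at 0 h. Here 0 h replicate 3 was the lowest untreated library, and the log2 fold change was 1.45 (SE 0.32) with all libraries and 1.74 with that library alone. The antisense ENSBTAG00000054344-AS1 on an unplaced scaffold was more abundant, with 29.9, 17.6 and 22.7 FPKM at 12 hpi, against 6.11, 5.64 and 12.9 FPKM at 0 h (log2 fold change 1.57, SE 0.34). It was 0.82 with 0 h replicate 3 alone. Across chromosomes, 7 of the 35 tested lncRNAs of chromosome 26 and 9 of the 66 of chromosome 23 were higher, beside 6.37% of all. The count on chromosome 26 was 1 with 0 h replicate 3 alone.

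**Figure D2:**
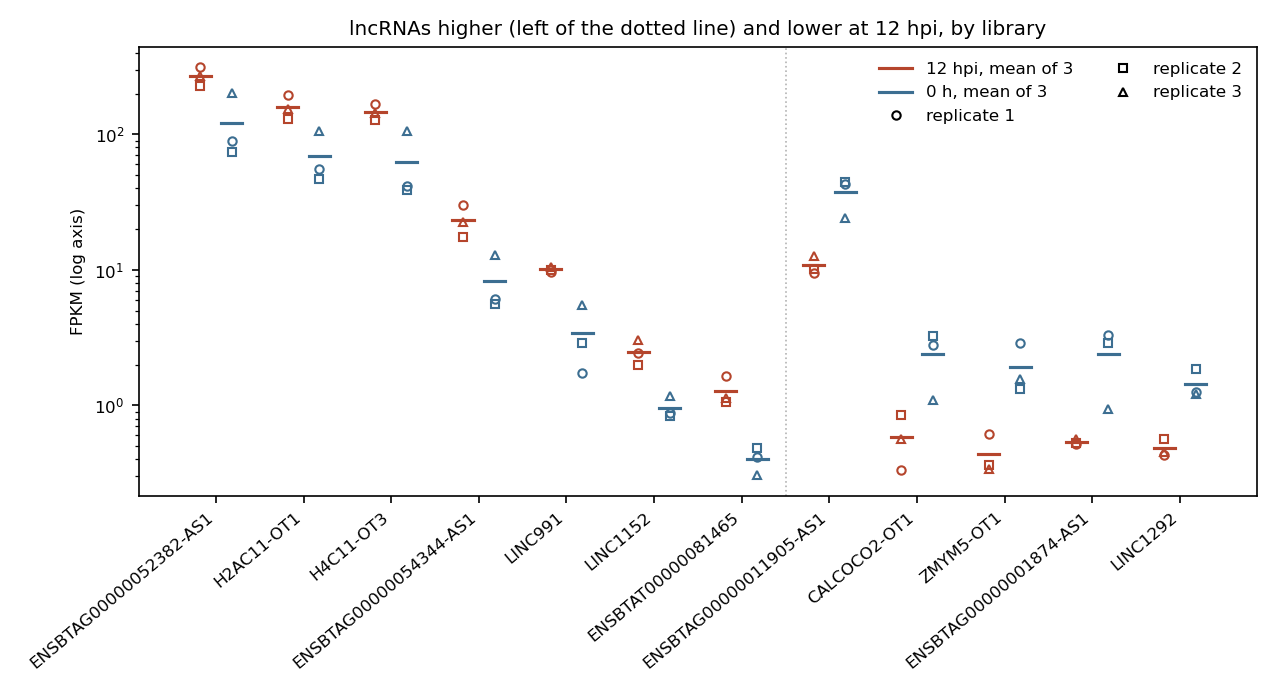
FPKM (log axis) of 12 lncRNAs in each library, with 12 hpi in red left of 0 h in blue, a bar at the mean of 3 and a marker for each replicate. For all 12 the 2 groups do not overlap, and 0 h replicate 3 (triangles) lies nearest to 12 hpi in most, as for ENSBTAG00000052382-AS1 at 200 FPKM beside 89.5 and 73.8 FPKM in the other untreated libraries.

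Some of the most abundant lncRNAs of these cells overlap histone genes, which supply the proteins that package newly made DNA and whose mRNAs peak in S phase. H4C11-OT3 and H2AC19-OT1 were chosen after their values were seen, and 3 of the lncRNAs lie within 1 Mb of each other on chromosome 23. H2AC11-OT1, in a histone H2A gene, had 196, 129 and 154 FPKM at 12 hpi, against 55.2, 47.2 and 107 FPKM at 0 h. H4C11-OT3, in a histone H4 gene, had 166, 127 and 145 FPKM at 12 hpi, against 41.8, 38.9 and 106 FPKM at 0 h. ENSBTAG00000052382-AS1, antisense in the same window, had 312, 226 and 270 FPKM at 12 hpi, against 89.5, 73.8 and 200 FPKM at 0 h. In all 3 the groups did not overlap and 0 h replicate 3 held the highest untreated value. H2AC19-OT1, in an H2A gene on chromosome 3, had 87.4, 53.8 and 64.4 FPKM at 12 hpi, against 26.4, 27.3 and 45.8 FPKM at 0 h. The log2 fold changes of the 4 were 1.27 (SE 0.30), 1.38 (SE 0.35), 1.28 (SE 0.33) and 1.06 (SE 0.25). With 0 h replicate 3 as the only untreated library they were 0.56, 0.45, 0.41 and 0.55, and none was then past the fold limit. After quantile normalization none of the 4 passed the fold and p limits, and H2AC19-OT1 also did not pass on values centred on library medians. At 6 hpi H2AC11-OT1 had 104, 139 and 130 FPKM, and H4C11-OT3 had 92.4, 126 and 128 FPKM. The cell cycle stage of the libraries was not measured, and its part in these values was not tested.

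FPKM were also summed per gene, so that levels listed under different transcripts of a gene in different libraries could be compared. Since FPKM divides by transcript length, such a sum still depends in part on how fragments were assigned to transcripts of unequal length. Of 1619 tested genes 161 were called (9.94%), 109 higher (6.73%) and 52 lower (3.21%). The groups did not overlap for 25%, with 15.7% higher and 9.33% lower. After adjustment 2 passed, or 0.124% of those tested, beside 17.2% with an unadjusted p under 0.05 (limma, adjusted p = 0.0387 for both), and both hold a single transcript and were chosen after their values were seen: HOXB3-OT1 in the homeobox gene HOXB3, and TCONS_00039271. HOXB3-OT1 had 12.7, 12.0 and 13.6 FPKM at 12 hpi, against 4.12, 3.11 and 5.79 FPKM at 0 h, with a log2 fold change of 1.58 (SE 0.23). With 0 h replicate 3 alone it was 1.13. Both passed the fold and p limits in all 21 settings tried. The levels are the same as in the transcript table, where the fit over transcripts gave slightly larger standard errors and an adjusted p of 0.0922 for both. Without 0 h replicate 3, 46 genes passed the adjusted p, and under the other settings between 0 and 3 did.

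Genes with several transcripts give a limited check on single isoforms, since other, more abundant transcripts can set the sum. Of 297 such genes tested, 21 were higher (7.07%) and 6 lower (2.02%), or 9.09% in all. Of the 187 called transcripts, 59 belong to 54 such genes, and for 16 of the 59 the gene was called in the same direction. For 26 the summed log2 fold change was below 0.5 in size, and for 6 it had the opposite sign. The 2 lncRNAs at MIC2 on chromosome 23 summed to 3.30, 4.36 and 5.36 FPKM at 12 hpi, against 1.22, 0.704 and 1.87 FPKM at 0 h. The groups did not overlap, and the log2 fold change was 1.77 (SE 0.35) with all libraries and 1.15 with 0 h replicate 3 alone. The 2 at CYS1, which encodes the cilium protein cystin 1, summed to 2.64, 2.2 and 0.822 FPKM at 12 hpi, against 0.239, 0.389 and 0.221 FPKM at 0 h. This sum was higher in every LPS-treated library (log2 fold change 2.26, SE 0.51) and did not depend on 0 h replicates 1 and 2 (2.48 without them). XLOC_012827, intergenic on chromosome 11, summed to 1.55, 1.62 and 2.18 FPKM at 12 hpi, against 0.574, 0.759 and 0.508 FPKM at 0 h (log2 fold change 1.40, SE 0.27). XLOC_049836, antisense to ENSBTAG00000020116 on chromosome 23, summed to 4.76, 3.36 and 4.77 FPKM at 12 hpi, against 1.38, 0.710 and 2.34 FPKM at 0 h (log2 fold change 1.60, SE 0.37, and 0.83 with 0 h replicate 3 alone). Also higher were XLOC_002305 (log2 fold change 2.25) and XLOC_035523 (2.59), which were 1.06 and 1.47 with 0 h replicate 3 alone and did not pass the limits there.

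The lower sums were at ENSBTAG00000052980, ENSBTAG00000049392, XLOC_071386, XLOC_024381, XLOC_085931 and TMEM236. ENSBTAG00000052980 on chromosome 23 summed to 9.63, 16.7 and 11.4 FPKM at 12 hpi, against 47.1, 37.0 and 18 FPKM at 0 h, with a log2 fold change of −1.36 (SE 0.35) that was −0.55 with 0 h replicate 3 alone. Its transcripts could not be compared singly, because libraries of 1 group listed different ones. ENSBTAT00000070696 had 0, 0 and 0 FPKM at 12 hpi, against 47.0, 36.8 and 0 FPKM at 0 h. ENSBTAT00000073211 had 9.63, 16.7 and 11.4 FPKM at 12 hpi, against 0.0857, 0.196 and 18 FPKM at 0 h. So 0 h replicate 3 was listed under the transcript of the LPS-treated libraries and its summed level was still above theirs. XLOC_071386, which holds LINC1292, summed to 0.431, 1.19 and 0.955 FPKM at 12 hpi, against 1.93, 2.28 and 2.43 FPKM at 0 h (log2 fold change −1.36, SE 0.33). The sum at XLOC_024381 was 0.384, 0 and 0.791 FPKM at 12 hpi, against 1.91, 1.86 and 1.62 FPKM at 0 h. Against 0 h replicate 3 alone XLOC_024381 (−2.30), ENSBTAG00000049392 (−1.77) and XLOC_085931 (−0.95) did not pass the limits, and XLOC_071386 did not pass without 12 hpi replicate 1. TMEM236 lay near the limit (log2 fold change −1.02, SE 0.45) and passed in 8 of 21 settings.

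In the H4C11 gene the sum was higher and its parts varied between libraries. The sum was 294, 217 and 291 FPKM at 12 hpi, against 77.2, 94.6 and 174 FPKM at 0 h (log2 fold change 1.29, SE 0.27). Against 0 h replicate 3 alone it was 0.61 and no longer past the fold limit. The sum also did not pass the limits after quantile normalization. H4C11-OT1 had 119, 82.4 and 4.26 FPKM at 12 hpi, against 35.4, 0 and 8.45 FPKM at 0 h. H4C11-OT2, which starts and ends at the same positions, had 8.90, 8.17 and 142 FPKM at 12 hpi, against 0, 55.6 and 59.9 FPKM at 0 h. Libraries high in one were mostly low in the other, in both groups, and neither was called.

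Opposite calls within 1 gene occurred at 4 genes, and at each the sum did not change past the limits. LINC144 and LINC145 share chromosome 10, 30453290 to 30457261 (XLOC_007704). LINC144 had 1.05, 0.614 and 0.436 FPKM at 12 hpi, against 0, 0 and 0 FPKM at 0 h. LINC145, the primer target TCONS_00012642, had 0.00939, 0.00201 and 0.0267 FPKM at 12 hpi, against 0.921, 0.997 and 0.818 FPKM at 0 h. The 2 groups were thus listed under different transcripts of the locus, while the sums of 1.06, 0.616 and 0.463 FPKM at 12 hpi, against 0.921, 0.997 and 0.818 FPKM at 0 h, overlapped (log2 fold change −0.38, SE 0.32). Each transcript was seen at 6 hpi, LINC145 in 1 library at 1.31 FPKM and LINC144 in the other 2 at 0.876 and 1.32 FPKM. At XLOC_036581 on chromosome 19, with 9 transcripts, LINC673 was higher (1.06) and LINC667 lower (−1.12), and the sum had a log2 fold change of 0.25 (SE 0.23). The sum was 105, 77.1 and 69.3 FPKM at 12 hpi, most of it from other transcripts. It cannot show whether LINC673 and LINC667 offset each other. LINC673 had 9.91, 8.37 and 6.32 FPKM at 12 hpi, against 2.98, 2.44 and 7.49 FPKM at 0 h, so its groups overlapped. Neither call held with 0 h replicate 3 alone, where LINC673 was at 0.11 and LINC667 at −0.57. At ENSBTAG00000048228 on chromosome 2, OT2 was higher (1.15) and OT5 lower (−1.70), with a sum at 0.02 (SE 0.24). Opposite ENSBTAG00000017661 on chromosome 7, with 8 transcripts, AS8 was higher (1.36) and AS1 lower (−1.81), with a sum at 0.05 (SE 0.17). That sum was 10.6, 13.4 and 12.0 FPKM at 12 hpi, where the means of AS8 and AS1 were 0.896 and 0.227 FPKM. Other transcripts set it, so it cannot show whether AS8 and AS1 offset each other. Against 0 h replicate 3 alone the log2 fold changes were −1.56 for OT5, 0.76 for OT2, 0.56 for AS8, −1.74 for AS1 and −3.03 for LINC145. With a single untreated library these are effect sizes only, and a large one does not mean that the call held. None is given for LINC144, which was listed at 0 in every untreated library.

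**Figure D3:**
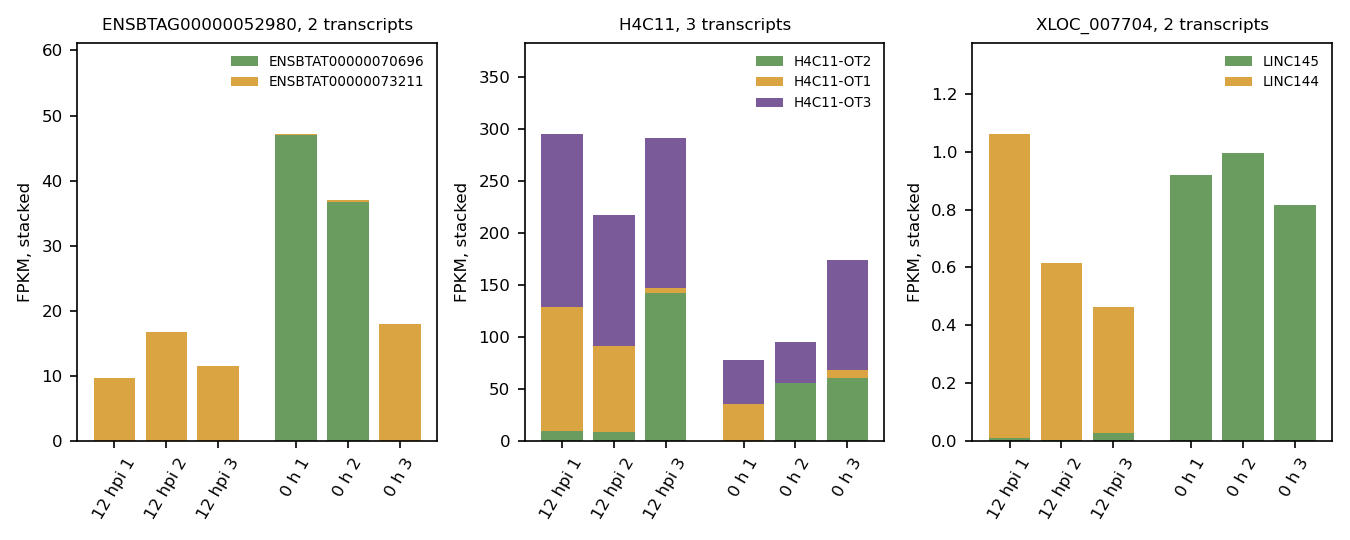
FPKM of the transcripts of 3 genes stacked in each library, with the 12 hpi libraries left of the 0 h libraries. The same locus was listed under different transcripts in different libraries, such as LINC144 at 12 hpi and LINC145 at 0 h in XLOC_007704, while the height of a bar is the gene's summed level, 9.63 to 16.7 FPKM at 12 hpi and 18 to 47.1 FPKM at 0 h for ENSBTAG00000052980.

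LncRNAs were placed at genes of 15 lists if the host, or any neighbour at most 100 kb away, belonged to a list. At genes of TLR4 and NF-kB signalling, the direct route of the LPS signal, 0 of 7 tested lncRNAs were higher and 0 lower, with a median log2 fold change of −0.01. Over all tested lncRNAs 6.37% were higher and 3.23% lower, with a median of 0.11, a background at which fewer than 1 call would fall in a list of 7. Near RELA, an NF-kB subunit, EHBP1L1-OT1 had 2.08, 2.85 and 3.92 FPKM at 12 hpi, against 3.17, 0 and 1.96 FPKM at 0 h. IRAK3-OT1, in the gene of a brake on TLR signalling, had 0.771, 0.744 and 0.466 FPKM at 12 hpi, against 0.657, 1.23 and 1.26 FPKM at 0 h. Both overlapped between groups. At cytokine, chemokine and complement genes 0 of 7 were higher and 0 lower, with a median of −0.24. MTHFD2L-OT1, near the neutrophil chemokine gene CXCL3, was abundant and level, with 34.8, 29.5 and 32.7 FPKM at 12 hpi, against 31.8, 28.8 and 32.4 FPKM at 0 h. TAF15-OT1 near CCL5 did not overlap between groups but stayed below the fold limit, with 0.885, 0.780 and 0.809 FPKM at 12 hpi, against 0.484, 0.253 and 0.539 FPKM at 0 h (log2 fold change 0.86, SE 0.37). At interferon response genes 0 of 5 were higher and 0 lower (median 0.04), and at PI3K-Akt and mTOR genes 0 of 7 (median −0.18). At chromatin regulators none of 5 passed either (median 0.35), and at cell cycle and p53 genes 0 of 12 (median −0.13).

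Downstream of the receptor, 3 lncRNAs at MAPK genes passed the limits, 2 higher and 1 lower of 14 tested (median 0.31), beside 9.6% of all. The lower one was TCONS_00039271 at RRAS2. Both higher ones lie together on chromosome 5 near MAPK11 and MAPK12, which encode p38 kinases. PLXNB2-OT1, in the gene of the semaphorin receptor plexin B2, had 2.48, 4.17 and 4.19 FPKM at 12 hpi, against 1.09, 1.13 and 2.17 FPKM at 0 h (log2 fold change 1.27, SE 0.34). PPP6R2-OT1, in the gene of a regulatory subunit of protein phosphatase 6, had 4.36, 3.87 and 1.03 FPKM at 12 hpi, against 0.0288, 0.00501 and 1.05 FPKM at 0 h (log2 fold change 3.44, SE 1.02). Its groups overlapped, since 0 h replicate 3 was as high as 12 hpi replicate 3. PPP6R2-OT2 in the same gene had 4.58, 5.51 and 5.35 FPKM at 12 hpi, against 5.44, 5.60 and 6.43 FPKM at 0 h, with a log2 fold change of −0.18. Between PLXNB2-OT1 and PPP6R2-OT1 lies ENSBTAG00000024756-AS1, which was called lower but has no host symbol and so entered no list. It had 0, 0 and 0.197 FPKM at 12 hpi, against 0.870, 0.502 and 1.67 FPKM at 0 h. Its log2 fold change was −2.82 (SE 0.72), and its groups did not overlap. Neither PLXNB2-OT1 (0.67) nor PPP6R2-OT1 (1.24) passed the limits with 0 h replicate 3 as the only untreated library. At Notch genes 0 of 9 were called, although the median was 0.53. There CCDC82-OT1 near the coactivator MAML2 had 1.40, 2.82 and 1.97 FPKM at 12 hpi, against 1.33, 0.808 and 0.787 FPKM at 0 h (log2 fold change 1.00, SE 0.35), just under the fold limit.

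Other lists held 1 to 3 calls, beside 9.6% of all tested lncRNAs. Of 13 lncRNAs at cytoskeleton and adhesion genes 3 were higher and 0 lower (median 0.11), beside 6.37% higher and 3.23% lower of all. These were PLXNB2-OT1, PPP6R2-OT1 and GBA2-OT5, which lies within 100 kb of the talin gene TLN1. GBA2-OT5 had 0.686, 1.44 and 1.09 FPKM at 12 hpi, against 0.341, 0.0491 and 0.496 FPKM at 0 h. Its log2 fold change was 1.73 (SE 0.53). GBA2-OT4 in the same gene had 0.0377, 0.474 and 0.117 FPKM at 12 hpi, against 0.608, 0.671 and 0.493 FPKM at 0 h. It pointed down (log2 fold change −1.41, SE 0.92) and its groups did not overlap, but it was not called. GBA2-OT2 was at 0.11, with overlapping groups. At genes of circRNA formation and RNA binding 2 of 6 were higher and 0 lower (median 0.60). MBNL2-OT1, in the gene of a muscleblind splicing regulator, had 4.85, 5.22 and 5.62 FPKM at 12 hpi, against 1.66, 2.42 and 3.44 FPKM at 0 h (log2 fold change 1.09, SE 0.43). CELF1-OT2, in the gene of an RNA-binding protein that acts in splicing and mRNA decay, had 1.66, 0.533 and 0.602 FPKM at 12 hpi, against 0.412, 0.217 and 0.285 FPKM at 0 h. Summed over both lncRNAs of CELF1, the level was 1.66, 1.67 and 1.40 FPKM at 12 hpi, against 0.412, 0.489 and 0.951 FPKM at 0 h, and more even than either transcript (log2 fold change 1.29, SE 0.30). GBA2-OT5 (0.92), MBNL2-OT1 (0.59) and the CELF1 sum (0.67) did not pass with 0 h replicate 3 alone, and MBNL2-OT1 and CELF1-OT2 passed in 12 of 21 settings each. At TGF-beta and epithelial-mesenchymal transition genes 0 of 8 were higher and 2 lower (median 0.04), the TGFBR3 antisense lncRNA and SPATA2-OT1 near SNAI1. SPATA2-OT1 had 0.177, 0.125 and 0.396 FPKM at 12 hpi, against 0.312, 0.993 and 0.841 FPKM at 0 h, and overlapped (log2 fold change −1.26, SE 0.49). At homeobox genes and the histone genes of the list, which does not hold H4C11, H2AC11 or H2AC19, 1 of 6 was higher (HOXB3-OT1) and 1 lower (CALCOCO2-OT1), with a median of 0.13.

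**Figure D4:**
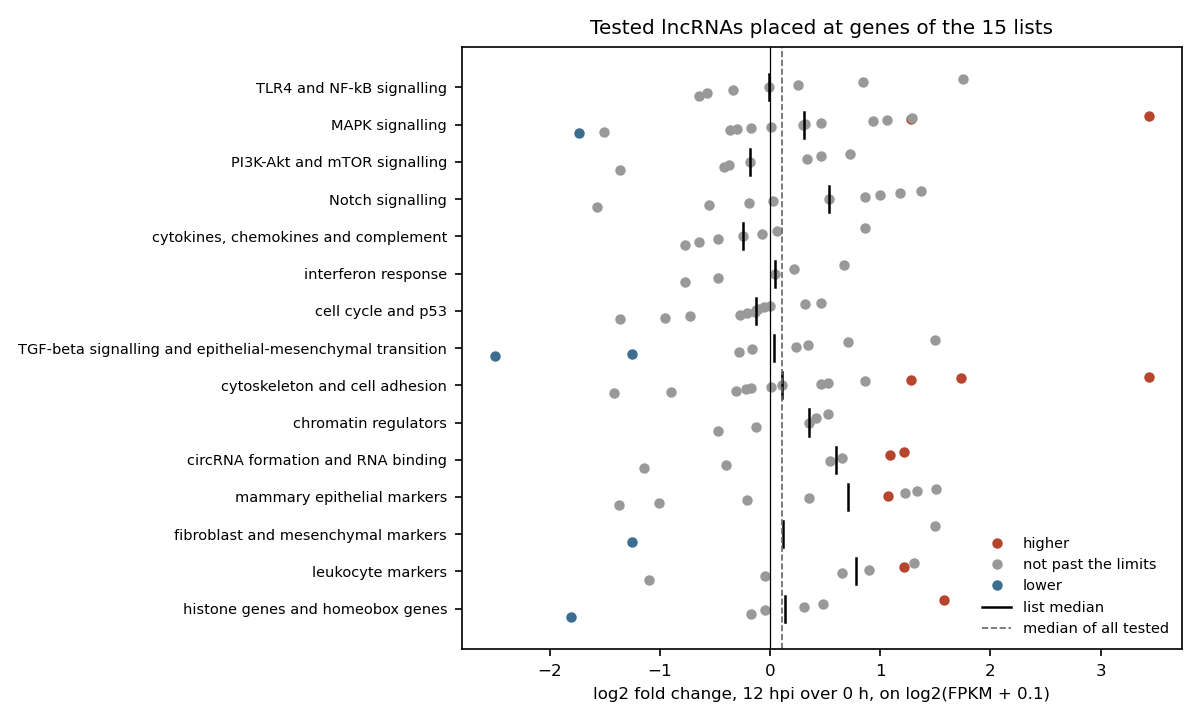
Log2 fold change (12 hpi over 0 h) of the tested lncRNAs placed at genes of 15 lists, with higher calls in red, lower calls in blue, others in grey, a black bar at each list's median and a dashed line at 0.11, the median of all tested lncRNAs. The calls were 0 of 7 at TLR4 and NF-kB genes, 0 of 7 at cytokine genes and 3 of 14 at MAPK genes, beside 9.6% of all tested lncRNAs.

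Longer lists of cell type markers could be read only through neighbouring lncRNAs. At mammary epithelial markers 1 of 8 was higher and 0 lower (median 0.71), and the summed level was 10.4 to 12.1 FPKM at 12 hpi and 7.02 to 8.25 FPKM at 0 h. The call was RUNX1-OT4, in the gene of the transcription factor RUNX1, with 1.80, 1.75 and 0.947 FPKM at 12 hpi, against 0.593, 0.471 and 0.913 FPKM at 0 h (log2 fold change 1.07, SE 0.36). It was 0.61 and below the fold limit with 0 h replicate 3 alone. Most lncRNAs of this list are transcripts of RUNX1, and their directions were mixed. RUNX1-OT2 pointed up (log2 fold change 1.22) and its groups did not overlap, but it was not called. RUNX1-OT3 (−1.37), RUNX1-OT1 (−0.21) and RUNX1-OT5 pointed down, with overlapping groups, and were not called. The summed level pools these transcripts. At leukocyte markers 1 of 6 was higher, CELF1-OT2 near SPI1, and 0 were lower (median 0.78). Their summed level was 8.55 to 10.6 FPKM at 12 hpi and 4.37 to 8.99 FPKM at 0 h. At fibroblast and mesenchymal markers 0 of 2 were higher and 1 lower (SPATA2-OT1), with sums of 1.36 to 2.40 FPKM at 12 hpi and 0.312 to 2.25 FPKM at 0 h. Of the markers named, only RUNX1 and XDH were themselves hosts, and the part of other cells in the results was not tested. In bulk samples fewer cells of a type and less RNA per cell cannot be told apart.

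The number of circRNAs listed differed with the number of junction reads in each library. The 12 hpi libraries listed 1518, 1498 and 1479 circRNAs, against 641, 508 and 2020 at 0 h. When every library was set to the 2305 reads of the smallest one, 501, 506 and 504 circRNAs were expected with the 2 reads that the lists require at 12 hpi, against 529, 508 and 484 at 0 h. The groups overlapped, with a difference of −3.37 (exact permutation p = 0.7). The 10 leading circRNAs held 9.35%, 9.05% and 9.32% of the circRNA signal at 12 hpi, against 10.4%, 9.93% and 8.10% at 0 h, a difference of −0.24 percentage points (exact permutation p = 0.8). Among untreated cells, 1316 circRNAs were listed in replicate 3 and in neither of the others.

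**Figure D5:**
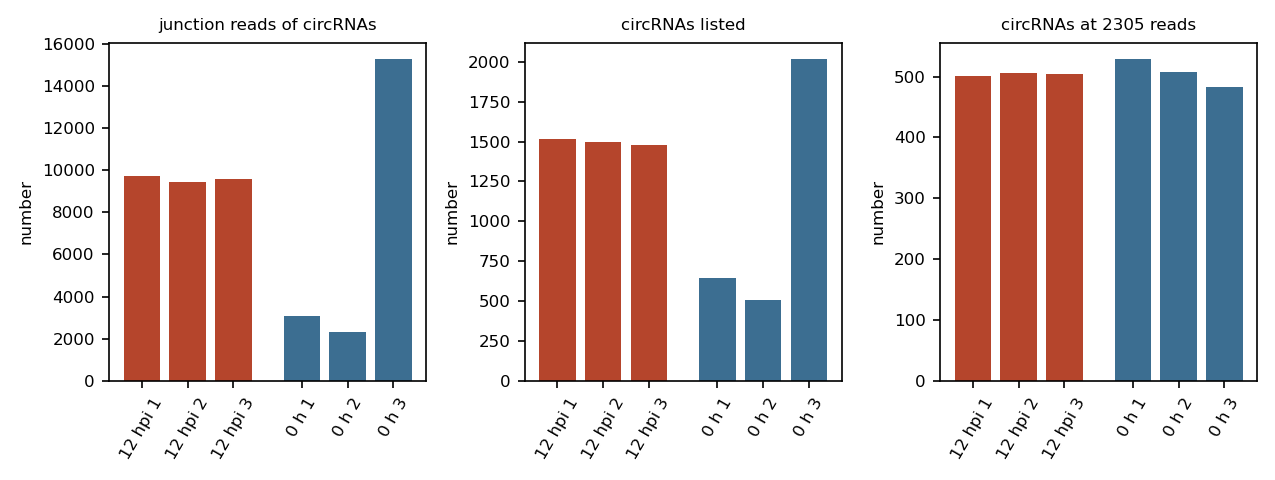
Junction reads of circRNAs, circRNAs listed, and circRNAs expected at 2305 reads in each library, with 12 hpi in red left of 0 h in blue. The number listed follows the reads, from 508 in 0 h replicate 2 to 2020 in 0 h replicate 3, while at equal junction reads all 6 libraries lie between 484 and 529.

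CircRNA TPM scaled with the circRNA junction reads of the same library, so higher and lower refer to a share of those reads. At the same limits 103 of 1586 tested circRNAs were called (6.49%), 79 higher (4.98%) and 24 lower (1.51%), with a median log2 fold change of 0.38 over all tested. Groups did not overlap for 10.4% of them, 8.13% higher and 2.27% lower, and 6.75% had an unadjusted p under 0.05. With 0 h replicate 3 as the only untreated library 10 were higher and 5 lower, and without that library 170 were higher and 45 lower. Among the 198 circRNAs listed in all 6 libraries 1 was higher and 21 lower. A circRNA passes this filter only where the 2 untreated libraries with few junction reads hold it, and the part of the filter in these calls was not tested. A filter on the 6 hpi libraries alone (a mean above 1000 TPM), chosen after seeing the data, left 191 circRNAs, of which 25 were higher and 7 lower. With 0 h replicate 3 alone 3 of the 191 were higher and 0 lower. The lists start at 2 junction reads, which were 637 TPM in 0 h replicate 1 and 857 TPM in 0 h replicate 2, so a circRNA listed at 0 there may have had 0 or 1 read. The 37 circRNAs listed in every 12 hpi library and in no untreated one had means of at most 723 TPM at 12 hpi. The reverse was seen for 2 circRNAs.

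The adjusted p was under 0.05 for 2 circRNAs, or 0.126% (limma), and the files give no host gene for any of them. The abundant novel_circ_0003598 was lower in TPM, with 45, 43 and 36 junction reads (4589, 4530 and 3731 TPM) at 12 hpi, against 38, 29 and 95 reads (12102, 12425 and 6146 TPM) at 0 h. Its groups did not overlap in TPM, while the numbers of reads did. A read was 102, 105 and 104 TPM at 12 hpi, against 318, 428 and 64.7 TPM at 0 h. Every library held at least 29 reads of this circRNA. The log2 fold change was −1.17 (SE 0.24, adjusted p = 0.00456), and −0.51 with 0 h replicate 3 as the only untreated library. At 6 hpi it had 5969, 5612 and 7221 TPM. The higher one, novel_circ_0000221, had 62, 63 and 39 reads at 12 hpi, against 11, 0 and 83 reads at 0 h (6323, 6636 and 4042 TPM against 3503, 0 and 5370 TPM). Its log2 fold change of 2.05 (SE 0.49, adjusted p = 0.0463) rested on the 0 in 0 h replicate 2 and was 0.34 without that library. By the rule for groups that do not overlap, novel_circ_0002071 led the higher ones, with 20, 32 and 15 reads at 12 hpi, against 2, 0 and 19 reads at 0 h (2040, 3371 and 1555 TPM against 637, 0 and 1229 TPM). Its log2 fold change was 2.19 (SE 0.67) with all libraries and 0.78 with 0 h replicate 3 alone. With few reads, novel_circ_0004684 had 0 in every library of 12 hpi and of 6 hpi, against 2, 2 and 8 reads (637, 857 and 518 TPM) at 0 h.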

How the data were processed

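Ribosomal-RNA-depleted libraries of MAC-T cells were sequenced in paired ends. Reads were aligned with HISAT2 to ARS-UCD1.2, per the paper's methods and the submitters' notes, which also name Cuffdiff 2.1.1 and DESeq 1.10.1. The authors deposited lncRNA values as FPKM per transcript and circRNA values as TPM, 1 column per library. Deposited TPM were whole multiples of 1 step per library (all within 0.05 of a whole number), from which junction reads were derived. All sample columns were used (0 left out).

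Transcripts above 0.5 FPKM in 3 of 9 libraries were tested with limma 3.58.1 (R 4.3.3, mean-variance trend) on log2(FPKM + 0.1), with 0 h, 6 hpi and 12 hpi in 1 fit. CircRNAs above 0 in 3 of 9 libraries were tested on log2(TPM + 129.4). Fold changes on these scales understate the change of low features. A call required a log2 fold change over 1 in size and an unadjusted p under 0.05. Benjamini-Hochberg adjustment ran over all features tested. FPKM were also summed per gene. Library summaries were compared by two-sided exact permutation tests, with p = 0.1 the smallest possible. Calculations used Python 3.11.15, pandas 2.3.3 and numpy 2.4.6, and the fits were tested on simulated data.

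Named features were the primer targets, the called features with the smallest p whose groups did not overlap, those listed at 0 in 1 group, the most abundant, opposite calls within a gene, called genes of several transcripts and calls at listed genes. Members and lists were chosen with earlier results of these data known. Neighbours came from RefSeq (548 of 550 host symbols matched), and only names and neighbourhood were taken from it because its assembly differs. LncRNAs without a host symbol, intergenic ones among them, were not placed. Host genes of circRNAs were not used here. Alternatives were other pseudocounts, filters, scalings, variance models and sets of libraries, and a replicate block.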

Additional observations from a re-analysis of the deposited data

How the results depend on the processing

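The number of lncRNA transcripts called, 187 as reported, was 89 with a pseudocount of 0.5, 32 with a pseudocount of 1 and 93 with 0 h replicate 3 as the only untreated library, and 145 to 271 when 1 library was left out. The number of lncRNA genes, 161 as reported, was 73, 27 and 90 in the same settings, and 131 to 224 when 1 library was left out. For circRNAs, 103 as reported, it was 11 with a pseudocount of 1000 TPM, 15 with 0 h replicate 3 as the only untreated library, 22 among circRNAs listed in all 6 libraries, and 32 among those above 1000 TPM at 6 hpi. Leaving out 1 library gave 71 to 215, the highest without 0 h replicate 3. The last filter and the use of 0 h replicate 3 alone were chosen after seeing the data. Higher calls made up 66.3% of transcripts, 67.7% of genes and 76.7% of circRNAs, but 48.6% of transcripts and 47.3% of genes on median-centred values, and 48.3%, 48.3% and 50% after quantile normalization.

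The difference in circRNAs listed was 442 as deposited and −3.37 at equal junction reads. Leaving out 1 library gave −15.1 to 7.86 circRNAs at equal junction reads, −0.92 to 0.22 percentage points in the share of the 10 leading circRNAs, and 90.5 to 153 in lncRNAs above 0.5 FPKM.

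Of the values of named called features under the alternatives, 1112 kept their direction and passed the limits, 155 kept their direction but did not pass, and 0 changed sign. Of the 155, 38 came with 0 h replicate 3 alone and 32 with a pseudocount of 1. The sums of 3 genes with opposite calls changed sign while staying near 0. For ENSBTAG00000048228 the log2 fold change was −0.115 on median-centred values, −0.0321 after quantile normalization, −0.0907 with 0 h replicate 3 alone, and −0.12 to 0.225 when 1 library was left out. For XLOC_036581 it was −0.103 after quantile normalization and −0.206 with 0 h replicate 3 alone. For XLOC_081061 it was −0.0848 on median-centred values, −0.0102 after quantile normalization, −0.0409 with 0 h replicate 3 alone, and −0.0667 to 0.14 when 1 library was left out. The cause was not tested.

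The replicate numbers did not pair the samples, since deviations of same-numbered 12 hpi and 0 h libraries correlated between −0.129 and 0.0306. With the replicate block 181 transcripts, 160 genes and 96 circRNAs were called, and 0 of each passed the adjusted p. Count tests on the derived junction reads were not run, because those reads could not be established as deposited counts. The FPKM values carry no fragment counts per transcript, and 0 h replicates 1 and 2 limit what circRNAs at 0 can show.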
